A study of Arabidopsis thaliana with 20 samples.

Results

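The first pair of true leaves of wild-type Arabidopsis thaliana was compared between 15 d, when the leaf is mature, and 5 d, when its cells still divide. The comparison rests on 5 of the 20 arrays of a study of MYB3R genes, which encode MYB transcription factors of the cell cycle: 3 arrays of 15 d leaves and 2 arrays of 5 d leaves, taken by their labelled genotype, organ and age. The plants were Columbia wild type and grew under continuous light at 22 °C on half-strength Murashige and Skoog medium with 2% sucrose. The 15 d leaves and the 5 d leaves of the myb3r1 myb3r3 myb3r5 triple mutant, with 3 and 2 arrays, were used only to ask which age effects were shared with wild type or differed from it. The number of plants in a sample and the origin of the replicates are not stated in the labels, and the p-values then cover only the spread between these samples. A sample is RNA of a whole leaf pair, in which fewer cells of a type and less RNA per cell cannot be told apart.

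A young leaf grows by division of its cells, which then stop dividing, first at the tip and last at the base. The cells go on to expand and often copy their DNA without dividing, while chloroplasts complete their photosynthetic apparatus. A maturing leaf also turns from an importer of sugar into an exporter, deposits defensive compounds and, later, recycles its contents to the rest of the plant.

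Each value below is a signal on the linear MAS5 scale, in which 1 probe set measures 1 or more transcripts, and levels of different probe sets are not compared. Signals under a floor of 33 were set to 33 for fold changes and tests, and 16021 probe sets with no array of 1 or both ages under it were tested with limma. The percentage of probe sets at or under the floor was 27.5, 33.3 and 30.3 on the 15 d arrays, against 35.1 and 31.9 on the 5 d arrays. Over the tested probe sets, Pearson's r between 15 d replicates 2 and 3 was 0.974 and between the 5 d replicates 0.971, while 15 d replicate 1 stood apart with 0.930 and 0.903. Array pairs of different age had an r of 0.524 to 0.593. Another scaling of the arrays lowered the median change by about 0.1, though not that of every gene group: over the tested probe sets the median log2 change was -0.046 as deposited, -0.151 after quantile normalization and -0.156 after centring on the median. Names were available for few genes, since 1580 of the 13513 probe sets with exactly 1 gene carried a symbol and the others a locus number alone. Of the 11 markers listed for leaf mesophyll 3 were measured by name, with summed signals of 46058.5, 29108 and 20840.1 at 15 d against 19234 and 23717 at 5 d. The root hair expansin genes EXPA7 and EXPA18 and the meristem peptide gene CLV3 were at or near the floor. EXPA7 had 15.2, 9.98 and 15.5 at 15 d and 7.06 and 14.4 at 5 d, and CLV3 3.93, 16.6 and 4.07 against 14.7 and 3.29. EXPA18 had 32.5, 28.8 and 3.24 against 49.2 and 35.2 and was not called by limma (log2 change -0.33, adjusted p = 0.22). It was called as a fall with either 5 d array left out. Those fits had no measured spread for it, since all its 15 d arrays were set to the floor.

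Leaf age was called for 54.6% of the tested probe sets. Of 16021 probe sets, 4266 (26.6%) were higher and 4480 (28.0%) lower at 15 d by limma at an adjusted p under 0.05, and 9730 had an unadjusted p under that value. The arrays of the 2 ages did not overlap in any of the 8746 calls, nor in 72.9% of all tested probe sets. The gains were larger than the losses. The median log2 change was 1.94 among the rises and -1.70 among the falls. A change of at least 8-fold was found for 1122 rises and 550 falls, and one of at least 32-fold for 283 rises and 65 falls. Without 15 d replicate 1 there were 4761 rises and 5249 falls. Leaving out 1 of the 2 arrays of 5 d leaves, which assumes that the other varies like the 15 d arrays, left 2236 and 2825 without replicate 1 and 2300 and 2668 without replicate 2.

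**Figure D1:**
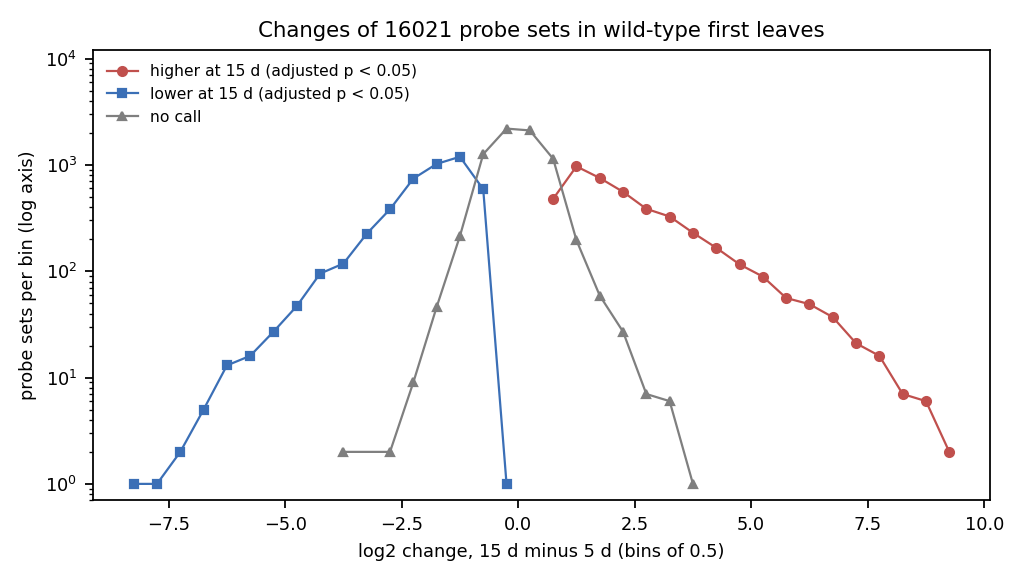
Number of tested probe sets (log axis) by their log2 change, 15 d minus 5 d, in bins of 0.5, for probe sets called higher at 15 d, called lower at 15 d, or without a call. The rises reach further from 0 than the falls, with 283 against 65 probe sets beyond 32-fold.

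Gene groups were counted by genes, each through its probe set with the highest mean log2 signal. Their counts in the main fit can be read against the 26.6% of all tested probe sets that rose and the 28.0% that fell. Groups of division, DNA replication, nucleolar and patterning genes lay well above the second share, and groups of senescence, autophagy, defence, detoxification and sugar transport above the first. Nuclear and plastid-encoded photosynthesis genes lay below both shares. Since the filter on low values let a gene enter the test through the age at which it is high, counts over all measured genes are added for several groups whose counts moved without that filter. Without it 3380 of all 22746 probe sets were called higher and 3575 lower. The added counts are to be read against these numbers and not against the shares of the main fit.

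**Figure D2:**
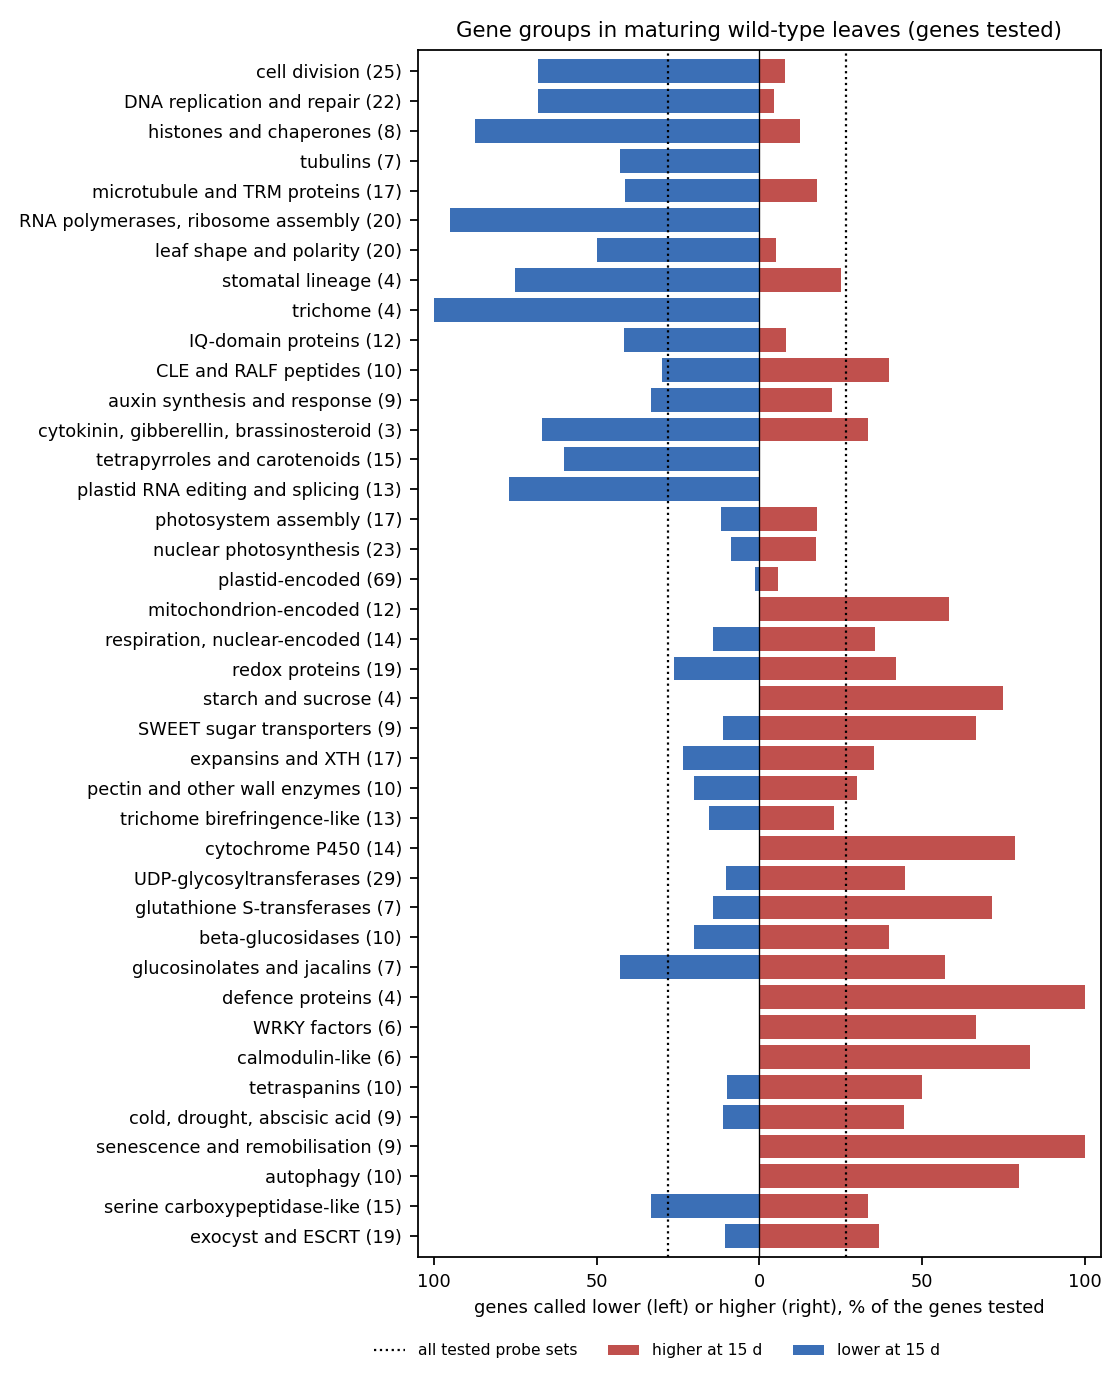
Percentage of the tested genes of each group (number in brackets) that were called higher (right, red) or lower (left, blue) in 15 d than in 5 d wild-type leaves. Dotted lines mark the shares of all tested probe sets, 26.6% higher and 28.0% lower.

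Probe sets with no gene or with several genes in the annotation were left out of the ranking given here. Changes among them, however large, are not named. Among the ranked probe sets the largest rise was that of AT2G25510. It had signals of 25298, 23884 and 25558 at 15 d against 40.1 and 49.2 at 5 d (561-fold higher; change in log2 signal 9.13 ± 0.19 SE, adjusted p = 3.7e-05). The 5 d arrays lay just above the floor. AT1G23130 was at least 467-fold and AT5G20790 at least 396-fold higher, folds with "at least" being taken against the floor where a 5 d array lay under it. Among the 15 largest ranked rises, those with a symbol were FDH, a formate dehydrogenase gene, ChiC, a gene of a class V chitinase, SWEET11, which encodes a sucrose exporter, ECS1 and the sucrose phosphate synthase gene ATSPS4F. ECS1 had 22358, 14139.6 and 17787 at 15 d and 80.6 and 115 at 5 d (7.53, adjusted p = 4.7e-05). The other rises of the 15, all known by locus number only, were AT1G65500, AT4G12490, AT1G80130, AT1G64370, AT3G22240, AT1G43910 and AT5G44580, with log2 changes of 7.38 to 8.04. The largest fall was that of AT4G29030, with 8.25, 5.87 and 3.26 at 15 d, under the floor, against 9426 and 8339 at 5 d (at least 269-fold lower; change in log2 signal -8.07 ± 0.23 SE, adjusted p = 3.7e-05). Of the 15 largest falls among the ranked probe sets 3 had a symbol: ATLP-1, a gene of a thaumatin-like protein (-6.40), and the mitotic genes 3xHMG-box2 and AUR2. The log2 changes of the others, among them AT1G73620, AT1G62500, AT2G33850 and AT5G45670, were between -5.79 (AT1G52100) and -7.13 after that of AT4G29030.

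Most tested genes of mitosis and cytokinesis fell. Of 25 cell division genes tested, all that were measured by name, 17 fell and 2 rose, with a median log2 change of -3.20 against -0.046 over all tested probe sets. 3xHMG-box2, whose protein binds condensed mitotic chromosomes, had signals of 68.0, 35.4 and 46.5 at 15 d against 4315 and 2543 at 5 d (68.7-fold lower; change in log2 signal -6.10 ± 0.39 SE, adjusted p = 0.00015). The Aurora kinase gene AUR2 had 40.8, 12.9 and 15.0 at 15 d against 2043 and 1925 at 5 d (at least 56.0-fold lower; change in log2 signal -5.81 ± 0.26 SE, adjusted p = 6.8e-05), and its relatives AUR1 and AUR3 fell, with log2 changes of -5.01 and -4.18. In these kinases the 15 d arrays were near or under the floor and the 5 d arrays far above it. BUBR1, of the spindle checkpoint, had 2.81, 11.1 and 26.1 at 15 d against 454 and 407 at 5 d (at least 13.0-fold lower; adjusted p = 0.00014). Its partner BUB3.1 had 157, 107 and 115 at 15 d against 1622 and 1453 at 5 d (12.3-fold lower; adjusted p = 0.00023). Transcripts of the centromere were lower too: HTR12, the centromeric histone H3 gene, fell at least 9.22-fold and WYR, which encodes an inner centromere protein, at least 6.50-fold. The histone kinase gene Haspin fell at least 11.0-fold, the phragmoplast kinesin gene KINESIN-12B at least 11.3-fold and the cytokinesis kinase gene FU at least 25.3-fold. The ubiquitin-conjugating enzyme gene UBC20, chosen after its values were seen, had 114, 96.1 and 112 at 15 d against 3476 and 4946 at 5 d (change in log2 signal -5.28 ± 0.26 SE, adjusted p = 8.2e-05).

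Not every gene tied to division followed. SKP2A, an F-box gene whose product removes cell-cycle repressors, rose to 1027, 1207 and 1883 at 15 d against 244 and 342 at 5 d (4.59-fold higher; adjusted p = 0.0023), and KEU, of vesicle fusion at the cell plate, rose by 0.68 (adjusted p = 0.041). The anaphase-promoting complex gene HBT had 253 ± 62.7 (SD, n = 3) at 15 d and 398 ± 46.5 (SD, n = 2) at 5 d and missed the threshold (log2 change -0.68, adjusted p = 0.11), while its paralogue CDC27a fell by 1.06. KINESIN-13A, a kinesin not confined to dividing cells, had a log2 change of 0.10 (adjusted p = 0.79). Among the tubulin genes 3 of 7 tested fell and none rose. TUB7 fell to 471, 267 and 322 at 15 d, against 3729 and 3520.4 at 5 d (change in log2 signal -3.40 ± 0.29 SE, adjusted p = 0.00032), TUB5 by 1.71 and TUA6 by 1.53, whereas TUB6 and TUB9 had changes of -0.25 and -0.29 that were not called. Of 17 tested genes of other microtubule proteins and of the TON1-recruiting family, which help to place the division plane and order cortical microtubules, 7 fell and 3 rose (median -0.74). TRM22 fell at least 18.1-fold and TRM15 rose by 2.91 on the log2 scale. Counts for this family were 3 higher and 4 lower without 15 d replicate 2, 1 higher and 6 lower without 5 d replicate 1 and 1 higher and 4 lower without 5 d replicate 2, and cell division had 1 higher and 16 lower without 15 d replicate 2, 1 higher and 17 lower without 15 d replicate 3, 0 higher and 14 lower without 5 d replicate 1 and 1 higher and 16 lower without 5 d replicate 2. With a floor of 100 the microtubule group had 1 higher and 6 lower of 11. CDC27a lost its limma call without 15 d replicate 1 (adjusted p = 0.055). CDC27a, KEU and TUB5 lost their limma calls without 15 d replicate 2 (adjusted p between 0.069 and 0.097). KEU and TUB5 lost their limma calls without 15 d replicate 3 (adjusted p between 0.076 and 0.09). CDC27a, KEU, SKP2A and TUB5 lost their limma calls without 5 d replicate 1 (adjusted p between 0.061 and 0.23). CDC27a, KEU and TUB5 lost their limma calls without 5 d replicate 2 (adjusted p between 0.087 and 0.21).

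Most tested genes of DNA replication fell as well. Among 22 tested genes of DNA replication and repair, of 25 measured, 15 fell and 1 rose (median -1.49). TOPII, which encodes DNA topoisomerase II, had 42.8, 21.0 and 19.4 at 15 d against 1306 and 1357 at 5 d (at least 37.0-fold lower; change in log2 signal -5.21 ± 0.27 SE, adjusted p = 9.3e-05). PRL, the gene of the helicase subunit MCM7, had 138, 122 and 129 at 15 d against 1573 and 1447 at 5 d (change in log2 signal -3.54 ± 0.23 SE, adjusted p = 0.00015). PRL stayed above the floor on every array of mature leaves, unlike TOPII. The GINS subunit gene PSF2 fell by 2.38, the helicase gene RECQ4A at least 6.60-fold and ICU2, the catalytic subunit of DNA polymerase alpha, by 1.29 on the log2 scale. The 1 rise was that of ATLIG4, a DNA ligase of double-strand break repair (0.96, adjusted p = 0.044). Of 8 tested genes of histones and their chaperones 7 fell: the H2B genes HTB1, HTB2, HTB11 and HTB4, HTR12, the chaperone gene ASF1B and the linker histone-like gene HON4. HTB1 had 311, 359 and 474 at 15 d against 4475 and 1999.6 at 5 d (change in log2 signal -2.99 ± 0.39 SE, adjusted p = 0.0014). HIS1-3, a linker histone known to respond to drought, went the other way with 285, 239 and 544 at 15 d against 15.7 and 22.3 at 5 d (at least 10.1-fold higher; change in log2 signal 3.34 ± 0.40 SE, adjusted p = 0.0011). Replication and repair had 0 higher and 16 lower without 15 d replicate 1, 0 higher and 13 lower without 15 d replicate 3, 0 higher and 13 lower without 5 d replicate 1 and 0 higher and 14 lower without 5 d replicate 2, and the histone group 1 higher and 4 lower without 5 d replicate 1. With a floor of 100 replication and repair had 1 higher and 7 lower of 13, and with no filter on low values 0 higher and 12 lower of 25. ATLIG4 and ICU2 lost their limma calls without 15 d replicate 1 (adjusted p between 0.052 and 0.059). HON4 and ICU2 lost their limma calls without 15 d replicate 2 (adjusted p between 0.061 and 0.088). ATLIG4 and ICU2 lost their limma calls without 15 d replicate 3 (adjusted p between 0.068 and 0.11). ATLIG4, HON4, HTB2 and HTB4 lost their limma calls without 5 d replicate 1 (adjusted p between 0.053 and 0.13). ATLIG4 and HON4 lost their limma calls without 5 d replicate 2 (adjusted p between 0.05 and 0.23).

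Transcripts for making ribosomes and RNA polymerases fell in all but 1 tested gene. In the group of RNA polymerase subunits, ribosome assembly and RNA processing factors 19 of 20 tested genes fell and none rose, with a median of -1.89. IMP4, of the small-subunit processome, had 285, 506 and 446 at 15 d against 2125 and 2323 at 5 d (5.55-fold lower; change in log2 signal -2.47 ± 0.30 SE, adjusted p = 0.001). NRPA1 and NRPA2, the large subunits of RNA polymerase I, which makes ribosomal RNA, fell by 1.85 and 1.59, and NRPC1 and NRPC2 of RNA polymerase III by 1.46 and 1.84. NRPA1 had 183, 114 and 125 at 15 d against 612 and 403 at 5 d. TRM82, of transfer RNA modification, fell 9.16-fold and the exosome gene RRP41L 8.27-fold. The exception was DIM1B (-0.18, adjusted p = 0.6), whose paralogue DIM1A, an 18S ribosomal RNA dimethyltransferase gene, fell by 1.95. The pescadillo-family nucleolar gene AT5G14520 had 940.5, 915 and 803 at 15 d against 6946 and 6724 at 5 d (7.73-fold lower). Without 5 d replicate 1 the group had 9 falls. NRPC1 lost its limma call without 15 d replicate 2 (adjusted p = 0.056). NRPA1, NRPA2, NRPC1, NRPC2 and TRM82 lost their limma calls without 5 d replicate 1 (adjusted p between 0.056 and 0.12). NRPC2 and TRM82 lost their limma calls without 5 d replicate 2 (adjusted p between 0.061 and 0.063).

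**Figure D3:**
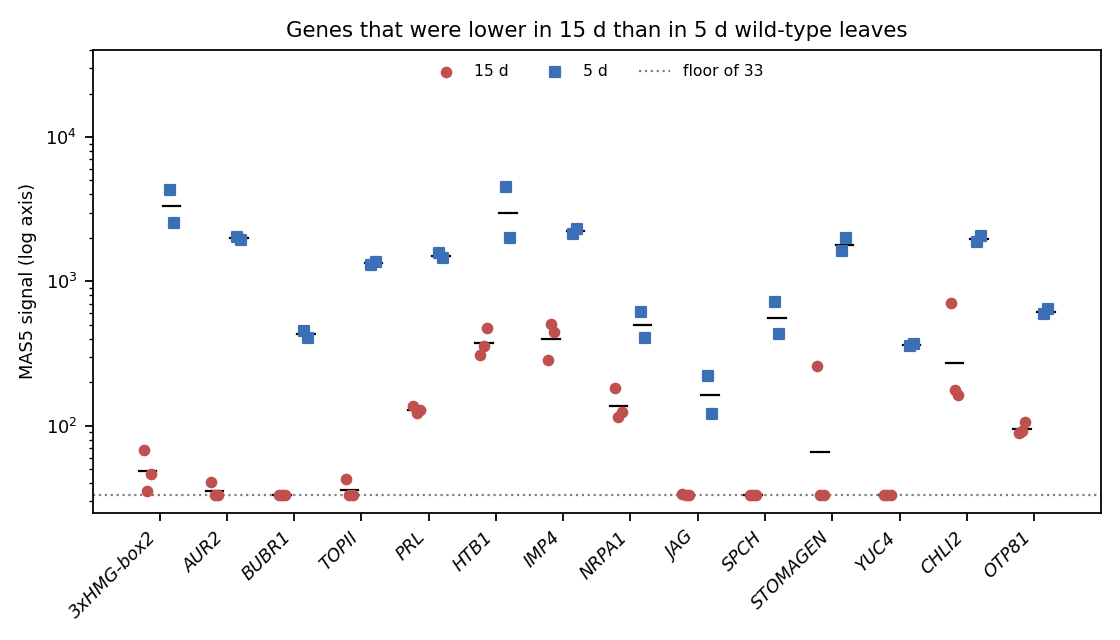
MAS5 signal (log axis) of 14 genes on the 3 arrays of 15 d leaves (circles) and the 2 arrays of 5 d leaves (squares); bars are means of log2 signals and signals under the floor of 33 are drawn on it. All 15 d arrays lie below both 5 d arrays for each gene, and 15 d replicate 1, the leftmost circle, lies above the others for STOMAGEN and CHLI2.

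Among regulators of leaf form falls outnumbered rises, and nearly as many genes were not called. Of 20 tested genes of leaf shape and polarity, of 23 measured, 10 fell and 1 rose (median -0.77). NUB and JAG encode related zinc-finger factors that promote growth of lateral organs. NUB had 23.2, 16.8 and 20.9 at 15 d against 455 and 229.6 at 5 d (at least 9.80-fold lower; adjusted p = 0.00062). JAG had 33.8, 23.1 and 30.5 at 15 d against 221 and 121 at 5 d (at least 4.92-fold lower; adjusted p = 0.0015), with every older array below both younger ones in either gene. The abaxial identity gene YAB3 fell to 326, 212 and 129 at 15 d against 1512 and 694 at 5 d (change in log2 signal -2.30 ± 0.51 SE, adjusted p = 0.01), while YAB5 of the same family had a log2 change of 0.21 (adjusted p = 0.73). NGA3 and NGA2, of the NGATHA factors, SPT, a restrainer of leaf growth, and the polarity gene PHV fell by 0.83 to 1.60. ARL, an ARGOS-like gene known to promote cell expansion, was the 1 rise, with 1142, 1489 and 1133 at 15 d against 243 and 316 at 5 d (change in log2 signal 2.17 ± 0.24 SE, adjusted p = 0.00085). Of 4 tested stomatal genes 3 fell and 1 rose. SPCH, which starts the lineage, had 10.2, 3.40 and 7.58 at 15 d against 720.4 and 432 at 5 d (at least 16.9-fold lower; adjusted p = 0.00022), and MUTE, which ends its divisions, 2.22, 0.733 and 3.77 against 77.6 and 107 (at least 2.77-fold lower; adjusted p = 0.0025). FMA, the last of these factors, which fixes guard cell identity, rose to 326, 203 and 213 at 15 d against 62.3 and 98.0 at 5 d (change in log2 signal 1.63 ± 0.35 SE, adjusted p = 0.0099). STOMAGEN, a peptide of inner leaf tissue that promotes stomata, had 257, 3.71 and 5.15 at 15 d against 1616 and 1982 at 5 d (change in log2 signal -4.77 ± 0.93 SE, adjusted p = 0.0065), so that replicate 1 carried nearly all of its 15 d signal. The 4 tested trichome genes all fell: the patterning repressor TRY by 2.03, BLT of branching by 1.86, GIS by 1.57 and SIM, a cyclin-dependent kinase inhibitor of endoreduplicating trichomes, by 1.14. Leaf shape had 2 higher and 9 lower without 15 d replicate 1, 1 higher and 6 lower without 15 d replicate 3 and 2 higher and 7 lower without 5 d replicate 2, the stomatal group 0 higher and 2 lower without 5 d replicate 1 and 0 higher and 2 lower without 5 d replicate 2 and the trichome group 0 higher and 1 lower without 5 d replicate 1 and 0 higher and 2 lower without 5 d replicate 2. With the replicate block leaf shape had 1 higher and 6 lower of 20, with a floor of 100 1 higher and 6 lower of 11 and with no filter on low values 1 higher and 6 lower of 23, and the last setting gave the trichome group 0 higher and 2 lower of 4. PHV lost its limma call without 15 d replicate 1 (adjusted p = 0.055). NGA2 lost its limma call without 15 d replicate 2 (adjusted p = 0.088). NGA2, PHV and SIM lost their limma calls without 15 d replicate 3 (adjusted p between 0.059 and 0.098). BLT, FMA, GIS, NGA2, PHV, SIM, STOMAGEN and YAB3 lost their limma calls without 5 d replicate 1 (adjusted p between 0.1 and 0.21). BLT, FMA, GIS, NGA2, PHV, STOMAGEN and YAB3 lost their limma calls without 5 d replicate 2 (adjusted p between 0.052 and 0.15).

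Hormone and peptide genes changed in both directions. YUC4, an enzyme of auxin synthesis, fell to 5.13, 3.25 and 4.06 at 15 d, against 356 and 367 at 5 d (at least 11.0-fold lower; adjusted p = 0.00015), and the Aux/IAA repressor gene IAA30 fell at least 9.21-fold. Genes that tie auxin up in conjugates differed: GH3.3 fell by 1.88, whereas WES1, also called GH3.5, rose by 1.41 and the auxin glucosyltransferase gene IAGLU by 3.62. IAGLU had 1077, 600.3 and 310.1 at 15 d against 46.7 and 48.8 at 5 d. ARR15 and RR16 encode type-A response regulators, which cytokinin induces and which damp its signal. ARR15 had 25.5, 1.32 and 21.4 at 15 d against 272 and 177 at 5 d (at least 6.66-fold lower; adjusted p = 0.00051). RR16 had 142, 33.5 and 27.7 at 15 d against 375 and 422 at 5 d (adjusted p = 0.013). BRH1, a RING-finger gene of the brassinosteroid response, rose by 1.83. Of 10 tested genes of CLE and RALF peptides 4 rose and 3 fell. CLE44, which encodes a peptide that maintains vascular stem cells, had 299.6, 309 and 398 at 15 d against 41.7 and 57.6 at 5 d (change in log2 signal 2.76 ± 0.29 SE, adjusted p = 0.00071); RALFL33 rose by 2.43 and RALFL24 fell by 2.40. Among 12 tested IQ-domain genes, whose products bind calmodulin and often microtubules, 5 fell, led by IQD26 (at least 6.95-fold lower) and iqd21 (-2.73), and 1 rose, IQD24 (1.302). The group of cytokinin, gibberellin and brassinosteroid genes had 1 higher and 1 lower without 5 d replicate 1 and 1 higher and 1 lower without 5 d replicate 2. The peptide group had 3 higher and 0 lower without 5 d replicate 1 and 3 higher and 0 lower without 5 d replicate 2, the auxin group 0 higher and 3 lower without 5 d replicate 1 and 0 higher and 3 lower without 5 d replicate 2 and the IQ-domain group 1 higher and 2 lower without 15 d replicate 2, 1 higher and 3 lower without 15 d replicate 3 and 1 higher and 3 lower without 5 d replicate 2. The IQ-domain count depended on the scaling, with 1 higher and 9 lower of 12 after quantile normalization and 1 higher and 7 lower of 12 after median centring, and was 1 higher and 3 lower of 15 with no filter on low values. Without that filter the peptide group had 3 higher and 1 lower of 18. iqd21 lost its limma call without 15 d replicate 2 (adjusted p = 0.054). GH3.3, IAGLU, RALFL24, RR16, WES1 and iqd21 lost their limma calls without 5 d replicate 1 (adjusted p between 0.069 and 0.2). GH3.3, IAGLU, RALFL24, RR16, WES1 and iqd21 lost their limma calls without 5 d replicate 2 (adjusted p between 0.061 and 0.15).

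Most tested genes of tetrapyrrole synthesis and of plastid RNA editing fell, while most of photosystem assembly and chloroplast division were not called. Of 15 tested genes of tetrapyrrole and carotenoid synthesis 9 fell and none rose (median -1.33). HEMB1, HEME1, HEME2 and GSA1, enzymes of the early steps towards chlorophyll, fell by 1.91, 2.49, 1.82 and 1.54. HEMB1 had 1663, 1308 and 1535 at 15 d against 4808 and 6522 at 5 d (change in log2 signal -1.91 ± 0.23 SE, adjusted p = 0.001). CHLI2, a subunit of magnesium chelatase, had 706, 176 and 162 at 15 d against 1863 and 2055 at 5 d (change in log2 signal -2.85 ± 0.65 SE, adjusted p = 0.012), and PORB, a protochlorophyllide reductase gene, missed the threshold with 2631 ± 2225 (SD, n = 3) against 5242 ± 1298 (SD, n = 2; -1.33, adjusted p = 0.15), though it was called without 15 d replicate 1 (-1.99, adjusted p = 0.0077). In the group of nuclear genes for plastid RNA editing and splicing 10 of 13 fell (median -1.16), among them the pentatricopeptide genes OTP81, with 88.8, 91.9 and 106 at 15 d against 595 and 642 at 5 d (change in log2 signal -2.70 ± 0.25 SE, adjusted p = 0.00045), and CRR28 (-2.23). Of 17 tested genes of photosystem assembly and chloroplast division 2 fell and 3 rose: PAC, of early chloroplast development, fell to 222, 259 and 245 at 15 d against 1786 and 1524 at 5 d, PAM68 fell by 1.52, and YLMG1-2, PIFI and CcdA rose by 3.32, 2.54 and 0.86. Tetrapyrrole genes had 0 higher and 5 lower without 15 d replicate 2, 0 higher and 5 lower without 5 d replicate 1 and 0 higher and 4 lower without 5 d replicate 2, editing genes 0 higher and 6 lower without 15 d replicate 2, 1 higher and 6 lower without 15 d replicate 3, 0 higher and 4 lower without 5 d replicate 1 and 0 higher and 3 lower without 5 d replicate 2 and assembly genes 3 higher and 9 lower without 15 d replicate 1, 2 higher and 1 lower without 15 d replicate 2, 3 higher and 1 lower without 15 d replicate 3, 2 higher and 1 lower without 5 d replicate 1 and 2 higher and 1 lower without 5 d replicate 2. After median centring the falls of the assembly group outnumbered its rises (3 higher and 6 lower of 17). With no filter on low values the tetrapyrrole genes had 0 higher and 5 lower of 16 and the editing genes 0 higher and 5 lower of 14, and with no floor the editing genes had 0 higher and 6 lower of 13. CcdA, HEME2 and PAM68 lost their limma calls without 15 d replicate 2 (adjusted p between 0.066 and 0.1). HEME2 and PAM68 lost their limma calls without 15 d replicate 3 (adjusted p between 0.051 and 0.059). CHLI2, CRR28, CcdA, HEME1, HEME2 and PAM68 lost their limma calls without 5 d replicate 1 (adjusted p between 0.059 and 0.29). CHLI2, CRR28, CcdA, HEME1, HEME2 and PAM68 lost their limma calls without 5 d replicate 2 (adjusted p between 0.057 and 0.18).

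Most nuclear photosynthesis genes were not called. Of 23 tested nuclear genes, 4 rose and 2 fell (median 0.24), both shares below those of all probe sets. With the replicate block 7 of the 23 rose (median 0.54), a share no longer below that of all probe sets. RCA, the Rubisco activase gene, had 22383, 14049.7 and 8776 at 15 d and 8639 and 9496 at 5 d (0.63, adjusted p = 0.23), and the antenna gene LHCB4.1 had 21323, 12849 and 10248 at 15 d and 10264 and 13967 at 5 d (0.24, adjusted p = 0.61). For both genes 15 d replicate 1 was the highest array. The antenna gene LHCB4.3 rose, with 2353, 2209.7 and 1816 at 15 d against 332 and 255 at 5 d (7.27-fold higher; change in log2 signal 2.86 ± 0.23 SE, adjusted p = 0.00029). PGRL1B, of cyclic electron flow, rose by 2.43, PRK, the phosphoribulokinase of the Calvin cycle, by 1.46 and NdhS by 1.31, while ATPC2, a second gene for a chloroplast ATP synthase subunit, fell by 2.24 and its main copy ATPC1 had a change of 0.57 (adjusted p = 0.11). The group had 4 higher and 1 lower without 15 d replicate 2, 4 higher and 1 lower without 15 d replicate 3, 3 higher and 1 lower without 5 d replicate 1 and 3 higher and 1 lower without 5 d replicate 2. PRK lost its limma call without 5 d replicate 1 (adjusted p = 0.14). PRK lost its limma call without 5 d replicate 2 (adjusted p = 0.12).

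Few plastid genes were called, and their level varied between arrays of 1 age. Of 69 tested plastid genes 4 rose and 1 fell by limma (median -0.43). The 4 rises were psbE, psbF, psbL and psbJ, neighbouring genes of 1 operon for small photosystem II subunits, with changes of 1.63, 1.12, 1.07 and 0.74. psbE had 7483, 6632 and 3756 at 15 d against 1794 and 1899.6 at 5 d (change in log2 signal 1.63 ± 0.33 SE, adjusted p = 0.0074). The intron maturase gene matK fell to 4705, 2219 and 1447 at 15 d, against 5769 and 9267 at 5 d (change in log2 signal -1.56 ± 0.52 SE, adjusted p = 0.043). The median log2 signal of the 45 plastid genes for photosynthesis was 11.02, 9.10 and 8.98 on the 15 d arrays, against 8.96 and 10.80 on the 5 d arrays, so that 15 d replicate 1 and 5 d replicate 2 stood above the other arrays. psbA, the gene of the D1 protein, had 4791, 438 and 359.6 at 15 d and 264 and 1780.3 at 5 d (0.41, adjusted p = 0.81). Leaving out arrays gave 2 higher and 7 lower without 15 d replicate 1, 2 higher and 2 lower without 15 d replicate 2, 5 higher and 0 lower without 15 d replicate 3, 0 higher and 0 lower without 5 d replicate 1 and 2 higher and 0 lower without 5 d replicate 2. Median centring gave 2 higher and 3 lower of 69 and the replicate block 8 higher and 4 lower of 69 (median -0.01). Of 12 tested mitochondrial genes, of 16 measured, 7 rose and none fell (median 1.41). With no filter on low values the count was 2 higher and 0 lower of 16 (median 0.93), and with a floor of 100 3 higher and 0 lower of 6 (median 0.86). cox2 had 137, 145 and 169 at 15 d against 24.1 and 40.0 at 5 d (at least 4.12-fold higher; change in log2 signal 2.04 ± 0.25 SE, adjusted p = 0.0011), and cox1, nad1 and ccb452 rose by 1.89, 1.93 and 1.95. A second probe set of nad1 changed by 1.13 and was not called (adjusted p = 0.077). Their counts were 4 higher and 0 lower without 15 d replicate 2, 4 higher and 0 lower without 15 d replicate 3, 1 higher and 0 lower without 5 d replicate 1 and 3 higher and 0 lower without 5 d replicate 2. Of 14 tested nuclear genes of respiration 5 rose and 2 fell. NDB2, an alternative NAD(P)H dehydrogenase, rose to 910.2, 810.1 and 773 at 15 d against 33.5 and 42.6 at 5 d (change in log2 signal 4.46 ± 0.26 SE, adjusted p = 0.00012) and its relative NDB1 fell by 1.81; CYTC-2 rose by 2.07, while CYTC-1 had a change of -0.39 (adjusted p = 0.27). The respiration group had 8 higher and 2 lower without 15 d replicate 1, 3 higher and 0 lower without 15 d replicate 2, 4 higher and 0 lower without 15 d replicate 3, 2 higher and 1 lower without 5 d replicate 1 and 3 higher and 0 lower without 5 d replicate 2, and 4 higher and 0 lower of 18 with no filter. cox1, psbJ and psbL lost their limma calls without 15 d replicate 1 (adjusted p between 0.052 and 0.061). NDB1, ccb452, cox1, matK, psbJ and psbL lost their limma calls without 15 d replicate 2 (adjusted p between 0.051 and 0.12). NDB1, cox1, matK, psbJ and psbL lost their limma calls without 15 d replicate 3 (adjusted p between 0.067 and 0.096). NDB1, ccb452, cox1, matK, nad1, psbE, psbF, psbJ and psbL lost their limma calls without 5 d replicate 1 (adjusted p between 0.08 and 0.22). CYTC-2, NDB1, ccb452, matK, nad1, psbE and psbF lost their limma calls without 5 d replicate 2 (adjusted p between 0.052 and 0.32).

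**Figure D4:**
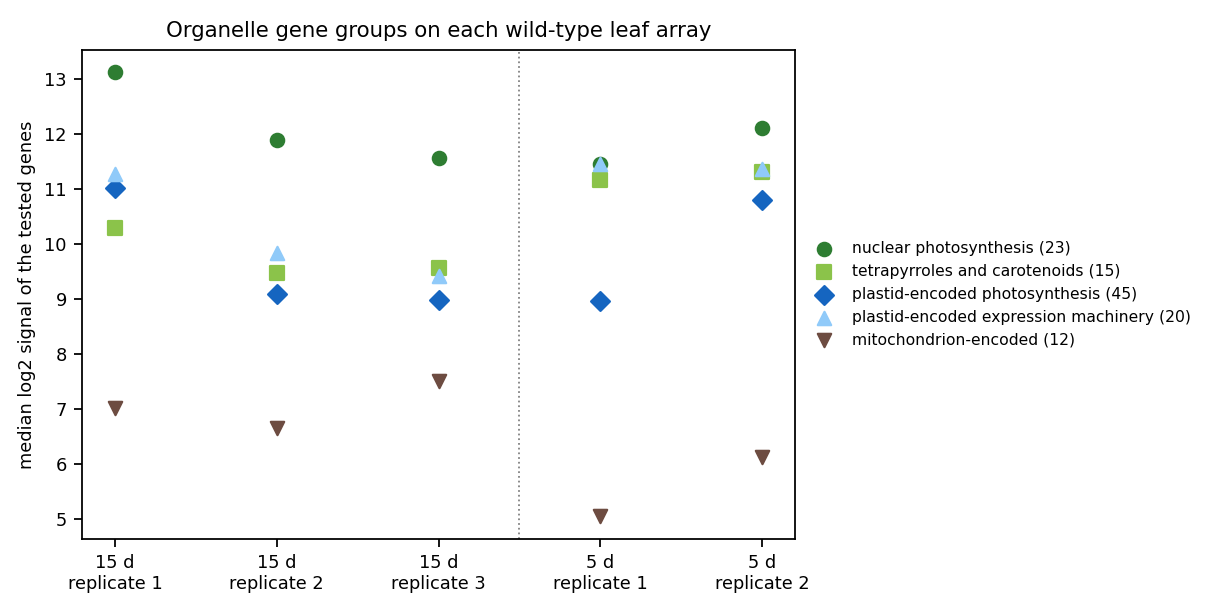
Median log2 MAS5 signal over the tested genes of 5 organelle groups (number of genes in brackets) on each wild-type leaf array, 15 d arrays left of 5 d arrays. Plastid-encoded photosynthesis genes are high on 15 d replicate 1 and 5 d replicate 2, and tetrapyrrole genes are lower on all 15 d arrays than on both 5 d arrays.

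Most tested genes of sugar transport and storage rose. SWEET11, which exports sucrose towards the phloem, had 11614, 10239 and 13349 at 15 d against 49.6 and 70.6 at 5 d (197-fold higher; change in log2 signal 7.62 ± 0.24 SE, adjusted p = 3.7e-05). Of 9 tested SWEET genes, of 16 measured, 6 rose and 1 fell (median 2.63). With no filter on low values 4 of the 16 rose and 1 fell (median 0.38). SWEET10 rose at least 73.4-fold, SWEET13 at least 29.4-fold and SWEET4 at least 6.19-fold. SWEET16, of the vacuole membrane, fell to 68.2, 28.0 and 19.2 at 15 d against 342 and 243 at 5 d (change in log2 signal -2.78 ± 0.41 SE, adjusted p = 0.0022). ATSPS4F, a sucrose phosphate synthase gene, was under the floor on both 5 d arrays, with 5289, 4930.0 and 5935 at 15 d against 4.92 and 11.7 at 5 d (at least 163-fold higher; change in log2 signal 7.35 ± 0.20 SE, adjusted p = 3.7e-05). Starch genes rose too: SBE2.2, a branching enzyme gene, rose by 2.04, the amylase gene AMY1 at least 13.4-fold and QQS, a modifier of starch content, by 3.79, 3 of 4 tested genes of the group. APL3, a large subunit of ADP-glucose pyrophosphorylase, chosen after its values were seen, had 3177, 4812 and 4513 at 15 d against 74.7 and 60.9 at 5 d (60.8-fold higher; change in log2 signal 5.93 ± 0.26 SE, adjusted p = 6.8e-05). In the SWEET group the counts were 4 higher and 0 lower without 5 d replicate 1. AMY1 lost its limma call without 15 d replicate 2 (adjusted p = 0.14). AMY1 lost its limma call without 15 d replicate 3 (adjusted p = 0.094). AMY1 and SWEET16 lost their limma calls without 5 d replicate 1 (adjusted p between 0.061 and 0.28). AMY1 lost its limma call without 5 d replicate 2 (adjusted p = 0.27).

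Cell wall families held both rises and falls, as did the tested probe sets as a whole (26.6% higher and 28.0% lower). Of 17 tested genes of expansins and xyloglucan endotransglucosylase/hydrolases (XTH), which loosen and rejoin the wall, 6 rose and 4 fell (median 0.55). XTH16 fell to 59.0, 63.9 and 47.2 at 15 d, against 1458 and 835 at 5 d (change in log2 signal -4.29 ± 0.34 SE, adjusted p = 0.00027), and EXPA15 and EXPA20 fell by 2.95 and 2.09. XTH19 rose to 1220.3, 3525 and 4776 at 15 d, against 16.2 and 19.3 at 5 d (at least 83.0-fold higher; change in log2 signal 6.37 ± 0.58 SE, adjusted p = 0.00041), and EXLB1 at least 30.5-fold. EXLA1 rose with a wide spread, 114, 1607 and 2235 at 15 d against 6.05 and 5.03 at 5 d (change in log2 signal 4.49 ± 1.25 SE, adjusted p = 0.024). Of 10 tested genes of pectin and other wall enzymes 3 rose and 2 fell: the pectin methylesterase gene PMEPCRF had 2433, 3915 and 5510.1 at 15 d against 67.1 and 91.5 at 5 d (47.8-fold higher), and the endoglucanase gene GH9B13 lay under the floor on all 15 d arrays, against 507 and 409 at 5 d (at least 13.8-fold lower). Of 13 tested trichome birefringence-like genes, whose products add acetyl groups to wall polymers, 3 rose and 2 fell, from 3.31 for TBL26 down to -2.82 for TBL39. The expansin group had 8 higher and 7 lower without 15 d replicate 1 and 3 higher and 4 lower without 5 d replicate 2, pectin genes 3 higher and 5 lower without 15 d replicate 1, 1 higher and 3 lower without 5 d replicate 1 and 1 higher and 2 lower without 5 d replicate 2 and the acetylation family 3 higher and 4 lower without 15 d replicate 1, 0 higher and 1 lower without 5 d replicate 1 and 0 higher and 1 lower without 5 d replicate 2. The sign of the expansin median depended on low values: it was -1.34 with a floor of 100 (4 higher and 3 lower of 11) and -1.52 with a stricter filter (4 higher and 4 lower of 10), and without a filter 4 higher and 4 lower of 28 measured genes were called. Either scaling gave 6 higher and 6 lower of 17. With no filter pectin genes had 1 higher and 2 lower of 21. EXLA1 lost its limma call without 15 d replicate 2 (adjusted p = 0.082). EXLA1 lost its limma call without 15 d replicate 3 (adjusted p = 0.058). EXLA1, EXPA20, TBL26 and TBL39 lost their limma calls without 5 d replicate 1 (adjusted p between 0.065 and 0.22). EXLA1, EXPA20, TBL26 and TBL39 lost their limma calls without 5 d replicate 2 (adjusted p between 0.068 and 0.21).

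In several families of detoxification and secondary metabolism rises outnumbered falls. Among cytochrome P450 genes 11 of 14 tested, of 24 measured, rose and none fell (median 2.201). CYP71B23 had 1839.9, 2392 and 2436 at 15 d against 1.87 and 2.41 at 5 d (at least 66.8-fold higher; change in log2 signal 6.06 ± 0.24 SE, adjusted p = 5.5e-05), and CYP71B24 and CYP71B6 rose by 3.93 and 3.68. Of 29 tested UDP-glycosyltransferase genes, of 42 measured, which attach sugars to small molecules, 13 rose and 3 fell (median 0.90). UGT72E1, active on lignin precursors, rose to 1885, 1097 and 1069 at 15 d against 13.6 and 33.9 at 5 d (at least 39.0-fold higher; change in log2 signal 5.28 ± 0.33 SE, adjusted p = 0.00014), UGT87A2 by 4.28 and UGT74B1, of glucosinolate synthesis, by 2.58. UGT76C2, which inactivates cytokinins, fell by 2.21 and UGT74F1, which acts on salicylic acid, by 1.84. Of 7 tested glutathione S-transferase genes 5 rose and 1 fell: GSTL3 had 8078, 8678 and 9432 at 15 d against 656 and 673 at 5 d (change in log2 signal 3.71 ± 0.18 SE, adjusted p = 8.7e-05) and GSTU26 79.8, 27.8 and 19.4 against 407 and 351 (change in log2 signal -3.09 ± 0.45 SE, adjusted p = 0.0022). Genes around glucosinolates, the sulfur-rich defence compounds of the cabbage family, moved in both directions. BCAT4, which begins the chain elongation of methionine, had 4539, 7722 and 8225 at 15 d against 53.4 and 39.2 at 5 d (144-fold higher; change in log2 signal 7.17 ± 0.33 SE, adjusted p = 7e-05) and the transporter genes GTR2 and GTR1 rose by 4.305 and 2.32, while the jacalin-related genes JAL33, JAL22 and JAL34 fell by 3.16, 2.81 and 2.25. Of 10 tested beta-glucosidase genes 4 rose, led by BGLU28 (at least 45.3-fold higher), and 2 fell, PYK10 (-1.76) and BGLU42 (-1.25). The P450 counts were 4 higher and 1 lower without 5 d replicate 1 and 6 higher and 1 lower without 5 d replicate 2, those of the glycosyltransferases 7 higher and 4 lower without 5 d replicate 1 and 6 higher and 1 lower without 5 d replicate 2, of the glutathione S-transferases 3 higher and 0 lower without 5 d replicate 1 and 3 higher and 0 lower without 5 d replicate 2, of the glucosinolate group 3 higher and 0 lower without 5 d replicate 1 and 3 higher and 0 lower without 5 d replicate 2 and of the beta-glucosidases 7 higher and 2 lower without 15 d replicate 1, 2 higher and 2 lower without 5 d replicate 1 and 2 higher and 1 lower without 5 d replicate 2. With no filter on low values the P450 genes had 7 higher and 1 lower of 24 (median 0.92). The glucosinolate group then had 4 higher and 0 lower of 7 and the beta-glucosidases 3 higher and 2 lower of 21. In the same setting the glycosyltransferases had 9 higher and 2 lower of 42 (median 0.56). The glutathione S-transferases had 4 higher and 1 lower of 14 (median 0.64). JAL22 lost its limma call without 15 d replicate 2 (adjusted p = 0.11). JAL22 lost its limma call without 15 d replicate 3 (adjusted p = 0.11). BGLU28, GSTU26, JAL22, JAL33, JAL34, PYK10 and UGT76C2 lost their limma calls without 5 d replicate 1 (adjusted p between 0.056 and 0.27). BGLU28, GSTU26, JAL22, JAL33, JAL34, PYK10, UGT74F1 and UGT76C2 lost their limma calls without 5 d replicate 2 (adjusted p between 0.052 and 0.29).

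Most tested defence genes rose. All 4 tested defence genes, of 7 measured, rose: ChiC had 4815, 10708 and 13042 at 15 d against 16.1 and 21.6 at 5 d (at least 265-fold higher; change in log2 signal 8.05 ± 0.44 SE, adjusted p = 0.0001), the jasmonate-linked defensin genes PDF1.2b and PDF1.2 rose by 6.98 and 3.71, and the chitinase gene CHI rose at least 37.9-fold. The defensin-like gene LCR69 went the other way, with 2286, 812 and 889 at 15 d against 15278 and 17119 at 5 d (change in log2 signal -3.77 ± 0.47 SE, adjusted p = 0.0012). Of 6 tested WRKY genes 4 rose and none fell. WRKY53, a regulator of the onset of senescence, had 534, 857 and 738 at 15 d against 26.5 and 20.3 at 5 d (at least 21.1-fold higher; change in log2 signal 4.40 ± 0.30 SE, adjusted p = 0.00018). Calmodulin-like genes, whose products sense calcium, rose in 5 of 6 tested, led by CML41 (3.07) and CML23 (2.61), and CML38 was not called (adjusted p = 0.23) except as a fall of 1.59 without 15 d replicate 3 (adjusted p = 0.031). Of 10 tested tetraspanin genes, of 15 measured, 5 rose and 1 fell: TET3 and TET8 rose by 5.16 and 3.05, and TET7 fell by 1.96. With no filter on low values 4 tetraspanin genes were higher and 1 lower of 15. Among 19 tested redox genes 8 rose and 5 fell. The peroxidase gene AT5G64120 had 5097, 6182 and 4092 at 15 d against 16.9 and 3.92 at 5 d (at least 153-fold higher) and the glutaredoxin gene GRXC1 rose by 4.07, whereas NTRC, a thioredoxin reductase of the chloroplast, and the thioredoxin genes TY1, TO1, TO2 and ty2 fell by 0.94 to 1.27. Of 9 tested genes of cold, drought and abscisic acid, of 14 measured, 4 rose and 1 fell, with changes of 2.12 for DI19 and -3.02 for DI21. With no filter on low values 3 genes of this group were higher and 0 lower of 14. The calmodulin-like group had 5 higher and 1 lower without 15 d replicate 3, 2 higher and 0 lower without 5 d replicate 1 and 2 higher and 0 lower without 5 d replicate 2, tetraspanins 2 higher and 1 lower without 5 d replicate 1 and 3 higher and 1 lower without 5 d replicate 2, redox genes 6 higher and 2 lower without 15 d replicate 2, 7 higher and 3 lower without 15 d replicate 3, 4 higher and 0 lower without 5 d replicate 1 and 4 higher and 1 lower without 5 d replicate 2, the cold and drought group 5 higher and 3 lower without 15 d replicate 1, 3 higher and 0 lower without 15 d replicate 2, 1 higher and 0 lower without 5 d replicate 1 and 1 higher and 0 lower without 5 d replicate 2 and the defence group 2 higher and 0 lower without 5 d replicate 1. With a floor of 100 redox genes had 5 higher and 5 lower of 18, tetraspanins 2 higher and 1 lower of 5 and the calmodulin-like group 3 higher and 0 lower of 4, and redox genes had 7 higher and 3 lower of 19 with the replicate block and 5 higher and 3 lower of 21 with no filter on low values. DI21, NTRC, TO1 and ty2 lost their limma calls without 15 d replicate 2 (adjusted p between 0.057 and 0.11). NTRC and ty2 lost their limma calls without 15 d replicate 3 (adjusted p between 0.091 and 0.094). CHI, CML23, DI19, DI21, LCR69, NTRC, PDF1.2, TET7, TO1, TO2, TY1 and ty2 lost their limma calls without 5 d replicate 1 (adjusted p between 0.051 and 0.27). CHI, CML23, DI19, DI21, LCR69, NTRC, TET7, TO1, TO2 and ty2 lost their limma calls without 5 d replicate 2 (adjusted p between 0.051 and 0.29).

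All tested senescence genes and most tested autophagy genes rose at 15 d. All 9 tested genes of senescence and remobilisation, of 13 measured, rose (median 3.84). With no filter on low values 7 of the 13 rose and 0 fell (median 2.55). PPDK, pyruvate orthophosphate dikinase, which serves nitrogen export from ageing leaves, had 4122, 3079.9 and 3427 at 15 d against 21.3 and 19.0 at 5 d (at least 107-fold higher; change in log2 signal 6.74 ± 0.23 SE, adjusted p = 4e-05). Vacuolar processing enzymes activate proteases of the vacuole. Their gene GAMMA-VPE had 7912, 5202 and 6949 at 15 d against 273 and 248 at 5 d (25.3-fold higher; adjusted p = 9.4e-05), and BETA-VPE had 3131, 3749.9 and 3592 at 15 d against 90.3 and 120.1 at 5 d (33.4-fold higher; adjusted p = 6.8e-05). SAG29, a senescence-associated SWEET gene, had 119, 883 and 1001 at 15 d against 29.4 and 13.0 at 5 d (change in log2 signal 3.84 ± 0.93 SE, adjusted p = 0.015), and SAG101 rose by 2.28. Autophagy genes rose in 8 of 10 tested (median 1.09): of the ATG8 genes, which encode the protein that decorates the autophagosome, ATG8F had 6924, 8339.5 and 8764 at 15 d against 1219.9 and 1561 at 5 d (change in log2 signal 2.53 ± 0.22 SE, adjusted p = 0.00035), ATG8B and ATG8H rose by 2.78 and 2.72, and ATG8E had a change of 0.35 (adjusted p = 0.22). Serine carboxypeptidase-like genes had 5 rises and 5 falls of 15 tested, from 3.22 for scpl48 to -3.33 for scpl25. These counts were not far from the shares of all tested probe sets, 26.6% higher and 28.0% lower. With no filter on low values 4 were higher and 5 lower of 29. Of 19 tested genes of the exocyst and of ESCRT complexes, which tether vesicles and sort membrane proteins for breakdown, 7 rose and 2 fell. The ESCRT genes SNF7.1 and VPS2.1 rose by 2.32 and 1.72, and VPS2.2 fell by 3.05. The autophagy counts were 5 higher and 0 lower without 15 d replicate 2, 3 higher and 0 lower without 5 d replicate 1 and 5 higher and 0 lower without 5 d replicate 2, those of the carboxypeptidases 4 higher and 3 lower without 5 d replicate 1 and 3 higher and 2 lower without 5 d replicate 2 and those of the ESCRT group 4 higher and 1 lower without 15 d replicate 2, 4 higher and 0 lower without 5 d replicate 1 and 5 higher and 1 lower without 5 d replicate 2. SAG29 lost its limma call without 15 d replicate 2 (adjusted p = 0.054). ATG8H, SAG29, VPS2.2 and scpl25 lost their limma calls without 5 d replicate 1 (adjusted p between 0.052 and 0.18). SAG29 and scpl25 lost their limma calls without 5 d replicate 2 (adjusted p between 0.097 and 0.17).

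**Figure D5:**
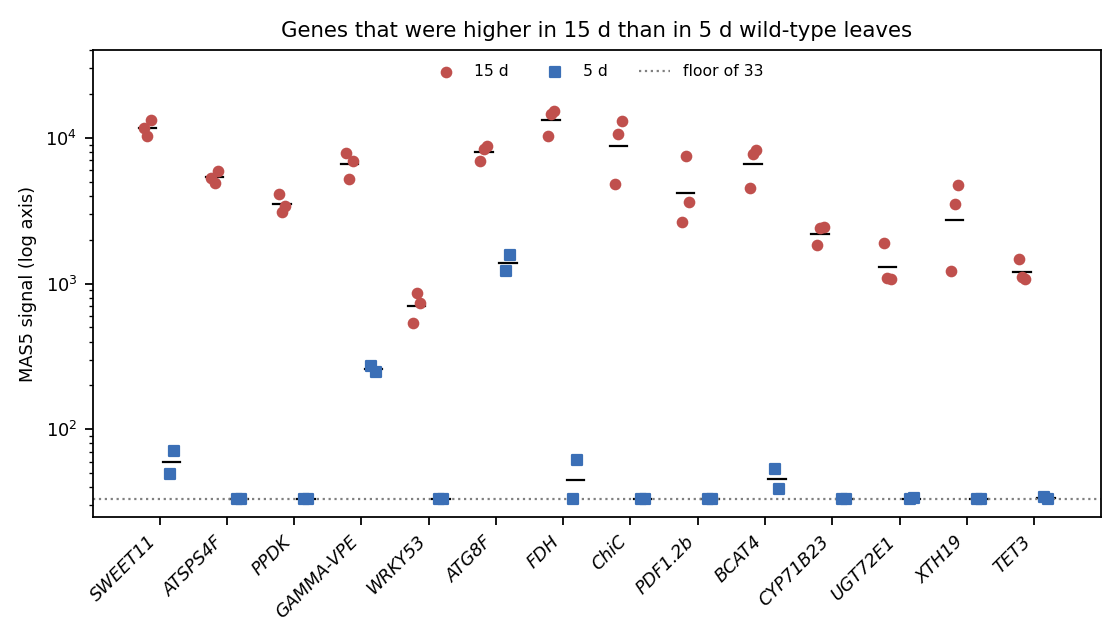
MAS5 signal (log axis) of 14 genes on the 3 arrays of 15 d leaves (circles) and the 2 arrays of 5 d leaves (squares); bars are means of log2 signals and signals under the floor of 33 are drawn on it. Every 15 d array lies above both 5 d arrays for each gene, and for 10 genes at least 1 of the 5 d arrays is on the floor.

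Some transcripts lay above the floor at 1 age only. At 5 d, 154 of the 13513 probe sets with 1 gene (1.14%) lay at the floor on both arrays while all 3 arrays of 15 d leaves were above 264, 8 times the floor, and 26 of these genes had a symbol. The reverse held for 52 (0.385%), 8 of them with a symbol. The largest bounds of the first kind were those of AT1G23130, AT5G20790, ChiC, AT1G65500, AT4G12490 and AT1G80130, and of the second kind those of AT4G29030, AT1G73620, AT2G33850, AT5G45670, AT4G02800 and AT4G28780. AT1G23130 had 15748, 16244 and 14274 at 15 d against 9.99 and 27.6 at 5 d. AT1G73620 had 29.4, 2.97 and 6.15 at 15 d against 5019 and 4269 at 5 d. With a symbol, the genes of the second kind were SPCH, GH9B13, BUBR1, Haspin, YUC4, NET1A, ZCF125 and BUB3.2, of which BUBR1, BUB3.2 and Haspin act in mitosis. Those of the first kind included the sugar genes ATSPS4F, SWEET10 and SWEET13, the P450 genes CYP71B23 and CYP71B24, the transcription factor genes WRKY53, STZ and bZIP44, and the transporter genes OCT1, CHX16 and CHX20, those outside every group being picked once their values were known. OCT1 lost its limma call without 5 d replicate 1 (adjusted p = 0.051).

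The 3 mature leaf samples were not alike. On 15 d replicate 1, 278 tested probe sets lay more than 4-fold from both other arrays, which were within 2-fold of each other, 165 above and 113 below them. The same held for 9 on replicate 2 and 29 on replicate 3. Genes that were low on replicate 1, chosen after their values were seen, included genes that rose with age: OSM34, an osmotin gene, had 478, 11690.5 and 14899 at 15 d against 21.9 and 10.6 at 5 d (change in log2 signal 7.05 ± 1.46 SE, adjusted p = 0.0083), and EXLA1, SAG29 and CHI had their lowest 15 d signal there. Among those that were high on replicate 1, STOMAGEN and CHLI2 were genes that fell with age. SBT1.3, a subtilase gene, had 301, 73.1 and 73.0 at 15 d against 5265 and 6580.2 at 5 d (change in log2 signal -5.65 ± 0.65 SE, adjusted p = 0.00092). The beta-glucosidase gene BGLU15 had 131, 1808 and 2472 at 15 d and 910.0 and 996 at 5 d (-0.19, adjusted p = 0.91), so that its 15 d arrays lay on both sides of the 5 d arrays. Without replicate 1 it was a called rise of 1.15. What sets replicate 1 apart was not tested. OSM34 lost its limma call without 5 d replicate 1 (adjusted p = 0.14). OSM34 lost its limma call without 5 d replicate 2 (adjusted p = 0.13).

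Most of the age effect was also found in leaves of the triple mutant, whose arrays are separate from those of wild type. In the mutant 3603 rises and 3864 falls were called among 15698 probe sets tested in both genotypes; 3120 rises were shared, 73.9% of those of wild type and 86.6% of those of the mutant, and 3336 falls, 75.2% and 86.3%. Over all probe sets tested in the mutant 46.6% were called, 22.6% higher and 24.1% lower. Of wild-type rises 2 fell in the mutant, and no wild-type fall rose there. Gene groups were not all alike in the 2 genotypes. The median log2 change of nuclear photosynthesis genes was 0.24 in wild type and -1.54 in the mutant, and that of cell division genes -3.20 and -1.40. Glutathione S-transferase genes had 2.29 and 0.38, while senescence genes had 3.84 and 3.99. These differences between group medians were not tested. Earlier work on these data had found 1 array of the mutant to stand apart, and the mutant medians were not computed with an array left out. The calls with age in the mutant numbered 7575 with all its arrays and 10183 without its 15 d replicate 1. By a test of the difference itself 57 of 16566 probe sets (0.344%) had an age effect that differed between the genotypes, 41 with a higher and 16 with a lower change in the mutant, and 48 of them were called with age in wild type. Among those of the 48 with exactly 1 gene, the 6 largest with a higher change in the mutant were AT4G01730, 3xHMG-box1, AUR2, AT3G10310, AT1G23790 and AT5G48310. All of these fell in wild type. AUR2 had 734, 598 and 739 in 15 d and 2288 and 2176 in 5 d mutant leaves, a log2 change of -1.70 where wild type fell by 5.81 (difference 4.11, SE 0.29, adjusted p = 0.0014). 3xHMG-box1 had 265, 430.3 and 259 at 15 d against 252 and 244 at 5 d in the mutant, and 44.3, 10.5 and 18.6 against 997 and 294 in wild type (difference 4.21, SE 0.68, adjusted p = 0.049). Among the rises of wild type with exactly 1 gene, 3 were called smaller in the mutant: MSRB5, a methionine sulfoxide reductase gene, AT1G65490 and AT3G56290. MSRB5 had 6709, 7249 and 6974 at 15 d against 449 and 957 at 5 d in the mutant, and 7692, 8430.0 and 9453 against 86.2 and 43.6 in wild type (difference -3.70, SE 0.51, adjusted p = 0.022). These calls rest on few arrays: the 57 became 8 without mutant 5 d replicate 2 and 564 without mutant 15 d replicate 1, and 21 without 15 d replicate 2, 24 without 15 d replicate 3, 88 without 5 d replicate 1 and 22 without 5 d replicate 2 of wild type. Without mutant 15 d replicate 2 or 3 there were 26 each, and without mutant 5 d replicate 1 447. Of the named differences, those of AUR2, AT4G01730 and AT3G10310 were called whichever array was left out. 3xHMG-box1 lost its call on leaving out any array other than mutant 15 d replicate 1 or wild-type 5 d replicate 2 (adjusted p between 0.05 and 0.27), and MSRB5 on leaving out any array other than mutant 15 d replicate 1, mutant 5 d replicate 1 or wild-type 5 d replicate 1 (0.056 to 0.11). AT3G56290 lost it without replicate 2 of either age and genotype or wild-type 15 d replicate 3 (0.053 to 0.083), and AT1G23790, AT5G48310 and AT1G65490 without mutant 5 d replicate 2 (0.056 to 0.067). The mutant's own calls were 1038 rises and 1960 falls without its 5 d replicate 1, and 1590 and 1668 without its 5 d replicate 2.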

How the data were processed

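RNA of first leaf pairs was hybridised to Affymetrix ATH1 arrays. The deposited values are probe set intensities on a linear scale, made by the authors with MAS5 per the submitters' processing notes (its version and settings are not given in the sources used here). The number of arrays limits the precision. Here intensities under 33 were set to 33 and log2 transformed, 64 control probe sets were dropped, and 16021 of 22746 probe sets, with all arrays of 1 or both ages over the floor, were tested two-sided with limma 3.58.1 (lmFit, eBayes with a variance trend) in R 4.3.3, with Benjamini-Hochberg adjustment over all of them. The script was also run on simulated data. Few probe sets changed there, unlike in the leaves, so that run does not gauge the calls made here. Names came from the platform annotation: 13513 probe sets had 1 gene, 503 several and 8730 none in the table used, 13436 matched RefSeq genes and 1580 had a symbol.

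Named genes were the 15 largest called changes in each direction (1 gene, mean of at least 132, ages not overlapping), up to 3 rises and 3 falls of each group, and the genes stated otherwise. Members, groups and tests were chosen with earlier results of these data known. Of the groups, 32 were added once gene names, not values, had been seen, and 5 members were left out because the gene table names another protein. Alternatives were another floor, scaling, filter, variance model and fit, a replicate block and leaving out each array. A planned search of promoters was not run. The seedling arrays were not analysed here. A gene group is not reported here.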

Additional observations from a re-analysis of the deposited data

Results flagged for a closer look

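The change with age differed between triple mutant and wild-type leaves, by a limma test of the difference itself, in 10 of the genes named. The difference, mutant minus wild type on the log2 scale, was 4.74 for AT4G01730, 4.21 for 3xHMG-box1, 4.11 for AUR2, 3.53 for AT3G10310, 3.51 for AT1G23790, 3.50 for AT5G48310 and 2.93 for KINESIN-12B, all of which fell in wild type. It was -3.88 for AT1G65490, -3.70 for MSRB5 and -2.71 for AT3G56290, which rose in wild type. In the mutant itself, AT4G01730 had a change of -0.18, KINESIN-12B of -0.57 and MSRB5 of 3.41. The difference of KINESIN-12B was no longer called without mutant 5 d replicate 2 (adjusted p = 0.077) or wild-type 5 d replicate 2 (0.083).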

How the results depend on the processing

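Calls with age in wild type numbered 8746. Every alternative that kept all 5 arrays gave between 6955 (no filter on low values) and 8966 (median centring), within 1.5 times, and leaving out 1 array gave 4968 to 10010 calls, 2236 to 4761 of them rises and 2668 to 5249 falls. In the mutant the ranges were 2998 to 10183 calls, 1038 to 4906 rises and 1668 to 5277 falls; 4 of these 5 alternatives and its replicate block (5450 calls) were chosen after seeing the data. The difference between the genotypes ranged from 8 to 564 calls without 1 array, with 5 to 199 higher and 3 to 365 lower, and the replicate block gave 181, of which 75 were higher and 106 lower; the cause was not tested. Of 212 called genes named, 138 kept their call without 5 d replicate 1 and 152 without 5 d replicate 2, against 187 to 205 without a 15 d array; 174 kept it with no filter and 201 of the 207 tested with a floor of 100, and under these alternatives none changed direction.

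Changes that were not called crossed 0 when 1 array was left out: they ranged from -0.12 to 0.32 for KINESIN-13A (-0.005 after median centring), from -0.39 to 0.027 for DIM1B, from -0.59 to 0.093 for TUB6, from -0.061 to 0.47 for LHCB4.1, from -0.23 to 0.48 for YAB5 and from -0.97 to 1.78 for psbA. BGLU15 became a called rise of 1.15 without 15 d replicate 1. ATPC1 was called after quantile normalization (adjusted p = 0.039), and CML38 and RCA with the replicate block (0.0049 and 0.036). Replicate numbers 1 and 2 occur at both ages but mark no stated batch. Deviations of same-numbered arrays correlated at 0.03 and -0.246, and those of differently numbered arrays at -0.23 to 0.246. With 2 arrays at 5 d, their deviations mirror each other, so these values cannot show whether the numbers mark a pairing. The numbers were used as names. The replicate block gave 7878 calls in wild type, 3942 rises and 3936 falls. With 2 arrays at 5 d, the measured spread of a probe set comes mainly from 15 d, with 3 residual degrees of freedom. To it limma joined 3.08 prior degrees of freedom from the spread of all tested probe sets. In 370 called falls every 15 d array lay at the floor, and in 907 called rises every 5 d array. The floor left no spread at that age in these calls.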
